A study of Danaus plexippus with 32 samples.

Results

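This report covers the 8 *Cry2* KO libraries of a 32-library RNA-seq series on monarch butterfly (*Danaus plexippus*) brains, and asks which transcripts still differed between day and night in them. The *Cry2* KO strain lacks a functional CRY2, the repressor of the circadian clock. Members were taken by genotype and time alone: the 4 day libraries are those labelled ZT4 and ZT10, in the light, and the 4 night libraries are those labelled ZT16 and ZT22, in the dark (Zeitgeber time, ZT, is in hours after lights on). Adults of both genotypes compared here, *Cry2* KO and wild type (WT), and of *Clk* KO, which lacks a functional CLK activator, had been held for at least 7 days in 15 h of light and 9 h of darkness at 25 °C. Each library pooled 3 brains dissected free of the eye photoreceptors. In every group replicate 1 was male and replicate 2 was female, so that the replicate factor and sex cannot be told apart. WT and *Clk* KO each had 8 libraries at the same 4 times, and they are used only where the *Cry2* KO values need a partner.

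In insects such as the monarch the clock is a feedback loop. The activators CLK and BMAL1 bind DNA together and switch on target genes that include *per*, *tim* and *Cry2*, and the CRY2 protein then shuts CLK:BMAL1 off, so that target RNAs rise and fall over a day. Light, feeding and temperature can also drive daily change directly. The libraries here come from a light-dark cycle, so a day-night contrast in *Cry2* KO brains asks for change of either kind that does not need the repressor.

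Expression is given in FPKM, a read density corrected for transcript length and sequencing depth. Reads behind the deposited values, worked out from the interval of each FPKM, summed to between 3004498 and 4126236 per *Cry2* KO library. Per WT library at the shared times they summed to between 3157577 and 4456322. These sums are not the mapped reads, of which the paper reports more per library. Of these WT libraries, ZT22 replicate 2 had the fewest genes at 3 FPKM (9184). Between 9404 and 9509 genes reached that level in a *Cry2* KO library, and no pair of libraries in the series held identical values. Among marker genes set beside the results, the summed FPKM of 4 neuronal markers (*VGlut*, *cac*, *GABA-B-R1* and *Nplp1*) was 178 to 188 by day and 161 to 183 by night in *Cry2* KO. Of the other 3 marker lists, glia (*Eaat2*, *Tret1-1* and both *e* genes) had 426 to 490 by day and 418 to 539 by night. Genes of visual pigment metabolism (*Pdh*, *ninaB* and *santa-maria* DPOGS202827) had 82.8 to 98.5 by day and 83.7 to 96.5 by night. Cuticle genes (*Ccp84Ae* and *Cpr49Ag*) had 226 to 481 by day and 295 to 386 by night. The day and night ranges overlapped in all 4 lists, but for glia both ZT16 libraries, at 539 and 511, lay above the other *Cry2* KO libraries. In WT, glia had 539 to 628 by day and 535 to 620 by night. The visual pigment genes had 97.9 to 138 by day and 119 to 145 by night in WT. The neuronal and cuticle ranges of WT overlapped those of *Cry2* KO. No marker stood at 0, and fewer cells of a type and less RNA per cell cannot be told apart in such pools. All of these markers come from the list of genes found rhythmic in WT that is described below. They are therefore no neutral measure of cell make-up by day and night. *Cry2* RNA itself was at 22.1 to 23.9 FPKM in the 8 *Cry2* KO libraries, so that its level does not check the genotype labels.

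No transcript passed the test for a difference between day and night in *Cry2* KO brains. Of 10127 genes with at least 3 FPKM in any *Cry2* KO library, 0 were called (0%) at an adjusted p of 0.05 or less, using the moderated test of limma on log2(FPKM + 1) with replicate as a factor and Benjamini-Hochberg adjustment over all 10127. At an unadjusted p under 0.05 there were 428 genes (4.23%), 216 of them higher by day (2.13%) and 212 higher by night (2.09%). In 227 genes (2.24%) the day and night libraries did not overlap, 114 of them with the day libraries higher (1.13%) and 113 with the night libraries higher (1.12%). The same contrast in WT also called 0 genes (0%) of the 10127, with 380 (3.75%) at an unadjusted p under 0.05 and 277 (2.74%) without overlap. The counts at an unadjusted p under 0.05 moved with single libraries: to 686 in *Cry2* KO without ZT4 replicate 1, and in WT to 854 without ZT16 replicate 2 and 732 without ZT22 replicate 2. A count of 0 in *Cry2* KO was thus not by itself a difference from WT. The next paragraphs give the sizes and intervals of the differences, and the test of the difference between genotypes.

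**Figure D1:**
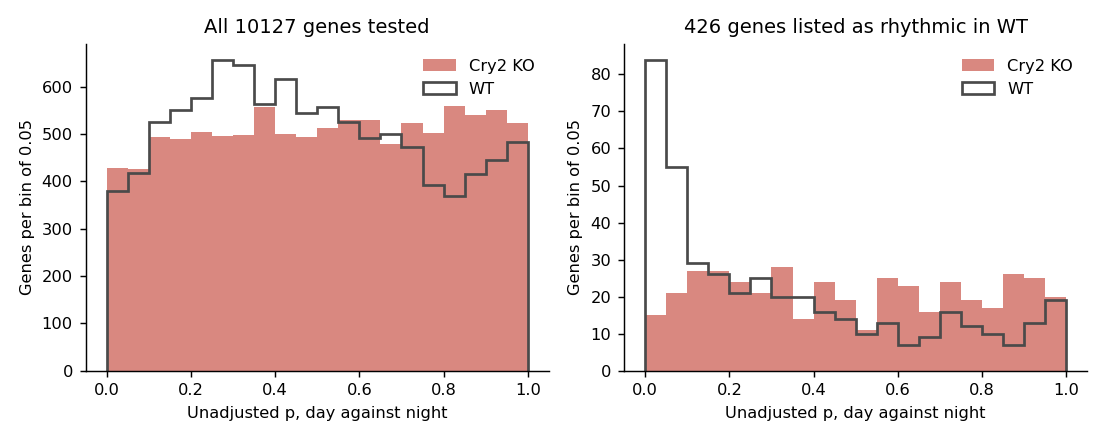
Number of genes per bin of 0.05 (vertical axis) by unadjusted p of the day-night contrast (horizontal axis), in *Cry2* KO (filled) and WT (line), over the 10127 genes tested and over the 426 tested genes listed as rhythmic in WT. The lowest bin holds 428 *Cry2* KO and 380 WT genes of all those tested, and 15 *Cry2* KO and 84 WT genes of the list, which was itself chosen on WT libraries.

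The day-night difference was measured closely enough in *Cry2* KO to bound most genes. For 7491 genes (73.97%) the 95% interval lay within 0.5 log2 units of 0 on either side, and for 9227 (91.1%) it lay within 1 log2 unit. The median size of the difference, leaving its sign aside, was 0.077 log2 units in *Cry2* KO and 0.12 in WT. The median standard error was 0.11 in *Cry2* KO and 0.16 in WT. In both genotypes, change between ZT4 and ZT10 or between ZT16 and ZT22 also enters the error of a day-night contrast. Why the errors differed between genotypes was not tested. All differences below are in log2(FPKM + 1), day minus night, which understates the change of genes with low FPKM.

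The core clock genes had no day-night difference that passed the test in *Cry2* KO, and their 95% intervals were narrow. *per* (DPOGS203908, scaffold DPSCF300005, 951403 to 967368, assembly v3), whose protein joins the repressor complex, stood at 42.3, 43.2, 45.9 and 43.4 FPKM in the day libraries (ZT4 replicates 1 and 2, then ZT10 replicates 1 and 2) and at 46.6, 39.2, 44.4 and 42.2 FPKM in the night libraries (ZT16, then ZT22). Day and night values were interleaved. In WT, *per* stood at 15.4, 14.1, 15.0 and 16.7 FPKM by day and at 38.4, 37.8, 45.7 and 31.5 FPKM by night, with every night library above every day library. The day-night difference was 0.02 in *Cry2* KO (standard error 0.065, 95% interval -0.13 to 0.17) and -1.26 in WT (95% interval -1.54 to -0.98, limma adjusted p = 0.0758). The difference between genotypes was 1.28 (standard error 0.13). It was the 1 genotype-by-phase interaction of 10127 (0.00987%) that passed the test, with a limma adjusted p of 0.00336. With each of the 16 libraries left out in turn it lay between 1.21 and 1.36, with adjusted p from 0.000542 to 0.0198. The call was lost for ZT4 against ZT16 only, at 1.31 with an adjusted p of 0.508.

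*cwo* (DPOGS209925, DPSCF300180, 115531 to 130653) encodes a repressor of CLK targets in *Drosophila*. Its FPKM were 17.8, 23.5, 24.3 and 20.2 by day and 18.5, 21.0, 21.2 and 19.8 by night in *Cry2* KO, so that all 4 night values lay within the range of the day values. In WT, *cwo* had 5.24, 6.43, 13.3 and 12.6 FPKM by day and 16.6, 18.3, 16.6 and 25.7 by night. The difference was 0.08 in *Cry2* KO (95% interval -0.17 to 0.33) and -1.03 in WT, with an interaction adjusted p of 0.916 (unadjusted 0.0062). *Cry2* (DPOGS208079, DPSCF300282, 74489 to 79584), the transcript of the missing repressor, had 22.6, 23.4, 23.9 and 22.2 FPKM by day and 23.2, 22.3, 22.1 and 23.2 by night in *Cry2* KO. Its difference was 0.02 (95% interval -0.12 to 0.16) against -0.47 in WT, where night values of 26.0 to 34.6 lay above day values of 19.2 to 23.2.

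The day-night contrast averages over ZT4 and ZT10, and over ZT16 and ZT22, between which the WT values of *tim* and *vri* lay apart. Neither gene passed the F test over the 4 times in WT (limma adjusted p = 0.405 for *tim* and 0.604 for *vri*). *tim* (DPOGS214179, DPSCF300014, 142094 to 150218), the partner of PER in *Drosophila*, had 63.7, 62.4, 66.2 and 61.6 FPKM by day and 69.9, 58.2, 69.8 and 63.0 by night in *Cry2* KO, and its difference was -0.04 (95% interval -0.18 to 0.11). In WT it had 36.5, 37.6, 78.9 and 86.02 by day and 107, 100, 80.4 and 64.1 by night. *vri* (DPOGS208606, DPSCF300052, 257703 to 259229), which regulates *Clk* in *Drosophila*, had 29.9, 27.9, 35.2 and 32.01 by day and 31.8, 32.3, 29.3 and 27.4 by night in *Cry2* KO, with a difference of 0.05 (95% interval -0.16 to 0.25). Its 2 WT libraries at ZT10 stood at 95.3 and 91.9 FPKM, while its WT libraries at the other 3 times lay between 16.7 and 45.9. The ratio of the highest to the lowest mean of the 4 times was 1.05 for *tim* and 1.19 for *vri* in *Cry2* KO, against 2.80 and 4.49 in WT. For *per*, *Cry2* and *cwo* this ratio was 1.04, 1.02 and 1.13 in *Cry2* KO against 2.61, 1.65 and 3.62 in WT. Of the 5 genes, *vri* had the smallest p over the 4 times in *Cry2* KO, with an unadjusted F test p of 0.125 (adjusted 0.956).

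**Figure D2:**
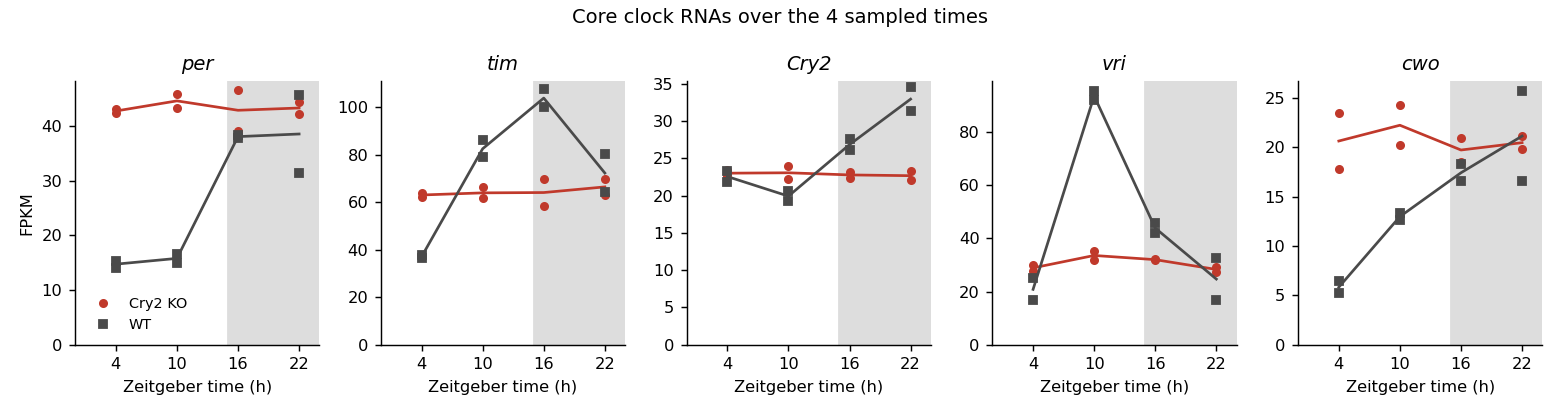
FPKM (vertical axis, from 0) of 5 core clock genes at ZT4, ZT10, ZT16 and ZT22 (horizontal axis, hours after lights on, dark phase shaded), with a point for each library and a line through the means of 2 libraries, in *Cry2* KO (circles) and WT (squares). The *Cry2* KO lines run nearly level, with a ratio of highest to lowest mean between 1.02 and 1.19, while the WT lines move between 1.65-fold and 4.49-fold.

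Time-of-day change that does not follow the light-dark boundary was sought with an F test over the 4 times in *Cry2* KO. It called 1 gene (0.00987%), with 485 genes (4.79%) at an unadjusted p under 0.05. The called gene, DPOGS216179, has no name in the sources used here and is given because it was the only call, not by the rule for named genes. It stood at 577 and 1000 FPKM in the 2 libraries at ZT16 and at 0 in the other 6 *Cry2* KO libraries, and these values came from 1 and 2 reads. At the same times it was at 0 in WT in all but ZT16 replicate 1, and in *Clk* KO in all but ZT22 replicate 1, at 468 FPKM. Its call was lost without the libraries ZT4 replicate 1, ZT4 replicate 2 or ZT16 replicate 2 of *Cry2* KO. The same F test in WT, added after the *Cry2* KO values had been seen, called 1 gene (0.00987%), with 429 (4.24%) at an unadjusted p under 0.05. That gene, DPOGS209525, had at most 1 read in any *Cry2* KO library. Within the light, ZT10 minus ZT4 called 0 genes (0%) in *Cry2* KO by limma, with 543 (5.36%) at an unadjusted p under 0.05. Within the dark, ZT22 minus ZT16 called only DPOGS216179 (0.00987%), with 488 (4.82%) at an unadjusted p under 0.05.

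Gene names in this series come from a supplementary list of 431 genes found rhythmic in WT, 426 of which were tested here. That list was chosen on the WT libraries, so its WT counts are no independent evidence of change in WT, whereas the *Cry2* KO libraries had no part in the choice. In *Cry2* KO, 0 of the 426 were called, 15 (3.52%) had an unadjusted p under 0.05 and 10 (2.35%) had day and night libraries that did not overlap, next to 4.23% and 2.24% of all genes tested. In WT the same 426 genes had 84 (19.7%) at an unadjusted p under 0.05 and 71 (16.7%) without overlap. The median size of the difference over the list was 0.079 in *Cry2* KO and 0.20 in WT. It was smaller in *Cry2* KO than in WT for 332 genes of the list (77.9%), and for 6369 of all 10127 (62.9%). Differences of 0.5 log2 units or more were seen in 4 list genes in *Cry2* KO (0.939%) and in 44 in WT (10.3%), next to 4.94% and 5.43% of all genes tested.

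The intervals set these values against those in WT. The WT difference lay outside the *Cry2* KO 95% interval for 164 of the 426 genes (38.5%), next to 24.3% of all genes tested, where the error of the WT value itself is not counted. Of the 84 list genes with an unadjusted p under 0.05 in WT, 59 had a WT difference outside the *Cry2* KO interval. These 84 were picked by their WT values, which fixes a large difference there. Their median size was 0.38 in WT and 0.084 in *Cry2* KO, next to 0.43 and 0.11 for all 380 genes picked in the same way, and 55 of them (65.5%) had the same sign in both genotypes. The interaction had an unadjusted p under 0.05 for 53 of the 426 genes (12.4%), next to 380 of all genes tested (3.75%), a count that became 1098 without WT ZT16 replicate 2. Over the 4 times, 18 list genes (4.23%) had an unadjusted F test p under 0.05 in *Cry2* KO, next to 4.79% of all genes, and 108 (25.4%) had one in WT. Within the light 23 (5.40%) and within the dark 21 (4.93%) reached that level in *Cry2* KO, next to 5.36% and 4.82% of all genes.

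**Figure D3:**
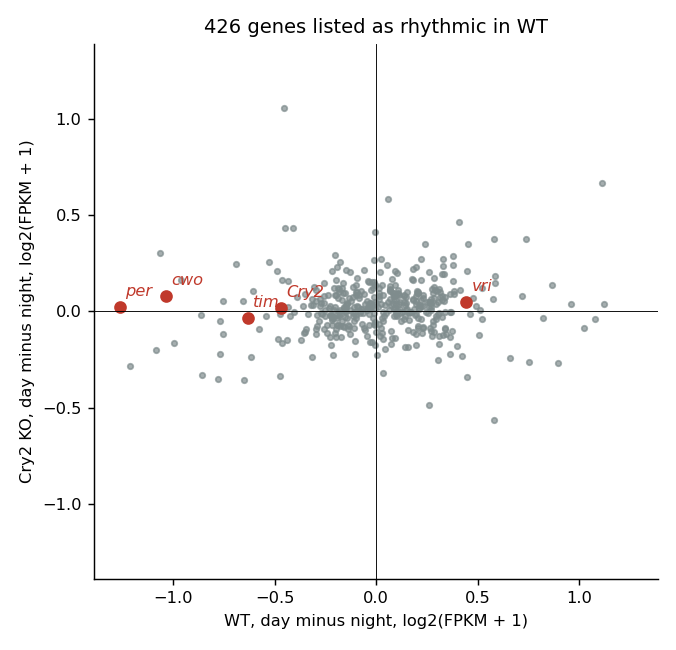
Day minus night in log2(FPKM + 1) in WT (horizontal axis) and *Cry2* KO (vertical axis), with a point for each of the 426 tested genes listed as rhythmic in WT and the 5 core clock genes in red. Points spread along the WT axis, with 44 genes at 0.5 or more on either side of 0, and lie close to 0 on the *Cry2* KO axis, where 4 do.

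Genes with a name and an unadjusted p under 0.05 in *Cry2* KO numbered 10 on the day side and 5 on the night side, none of them called (limma adjusted p = 0.999 for each). They are given as the nearest candidates, in a comparison in which 4.23% of all genes reached that level. *Itgbn*, an integrin beta subunit, had 4.80, 5.80, 4.58 and 4.25 FPKM by day and 3.89, 3.63, 3.42 and 2.67 by night in *Cry2* KO. Every day library lay above every night library, with a difference of 0.41 (95% interval 0.08 to 0.75) against -0.01 in WT. *ImpL2*, which binds and antagonises insulin-like peptides in *Drosophila*, had 5.12, 2.95, 4.71 and 1.96 FPKM by day and 2.16, 2.70, 1.52 and 1.19 by night in *Cry2* KO. The groups overlapped through the day library at 1.96, a median of 11 reads lay behind its values, and the difference was 0.67 (95% interval 0.06 to 1.28) against 1.11 in WT, where the groups did not overlap.

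*Membrin*, a SNARE protein of the Golgi, was on opposite sides in the 2 genotypes. It had 251, 262, 216 and 239 FPKM by day and 216, 174, 196 and 224 by night in *Cry2* KO, where the groups overlapped. In WT it had 216, 236, 213 and 273 by day and 296, 345, 322 and 389 by night, without overlap. The difference was 0.26 in *Cry2* KO (95% interval 0.02 to 0.49) and -0.53 in WT. The interaction of 0.78 (standard error 0.13) did not pass the test, with a limma adjusted p of 0.283, and a median of 31 reads lay behind each *Cry2* KO value.

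Of the other day-side genes, 6 are given by their differences. *CG4822* had a difference of 0.43 in *Cry2* KO and -0.41 in WT, and *CG10089* 0.35 and 0.24. *NfI*, a nuclear factor I transcription factor, had 0.29 in *Cry2* KO and -0.20 in WT, and *Lrpprc2*, named for a mitochondrial RNA-binding protein, 0.27 and 0.33. In WT, *Lrpprc2* stood at 1177 and 1368 FPKM at ZT10 and at 912 and 858 at ZT16. At ZT4 and ZT22 its WT values lay between 417 and 525. The ratio of its highest to lowest time mean was 2.82 in WT (F test, limma adjusted p = 0.286) and 1.35 in *Cry2* KO. *Ufc1*, the conjugating enzyme of the ubiquitin-like UFM1, had 0.26 and -0.18, and *CG15186* 0.20 and -0.13. Day and night libraries overlapped in *Cry2* KO for all of these 6 genes.

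On the night side, *CG33281* had 85.3, 77.0, 97.5 and 92.8 FPKM by day and 104, 99.6, 122 and 128 by night in *Cry2* KO. Every night library lay above every day library, with a difference of -0.36 (95% interval -0.62 to -0.10). In WT its 2 libraries at ZT10, at 49.7 and 38.2 FPKM, lay below the other 6, at 107 to 169. *P5cr-2*, a pyrroline-5-carboxylate reductase of proline synthesis, had 69.1, 79.0, 64.8 and 66.4 FPKM by day and 84.5, 76.3, 84.9 and 110 by night in *Cry2* KO. A single night library, at 76.3, lay below a day library, and the difference was -0.34 (95% interval -0.61 to -0.06) against -0.48 in WT. *Fdx1*, a ferredoxin, had a difference of -0.34 in *Cry2* KO and 0.45 in WT, *Lgr1*, a glycoprotein hormone receptor, -0.23 and -0.32, and *atl*, a GTPase that shapes the endoplasmic reticulum, -0.19 and 0.05. Of the 15 genes on both sides, 7 had the same sign in WT. *ImpL2* and *P5cr-2* were the 2 list genes with an unadjusted p under 0.05 and the same sign in both genotypes, and *Membrin* was the 1 with opposite signs.

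**Figure D4:**
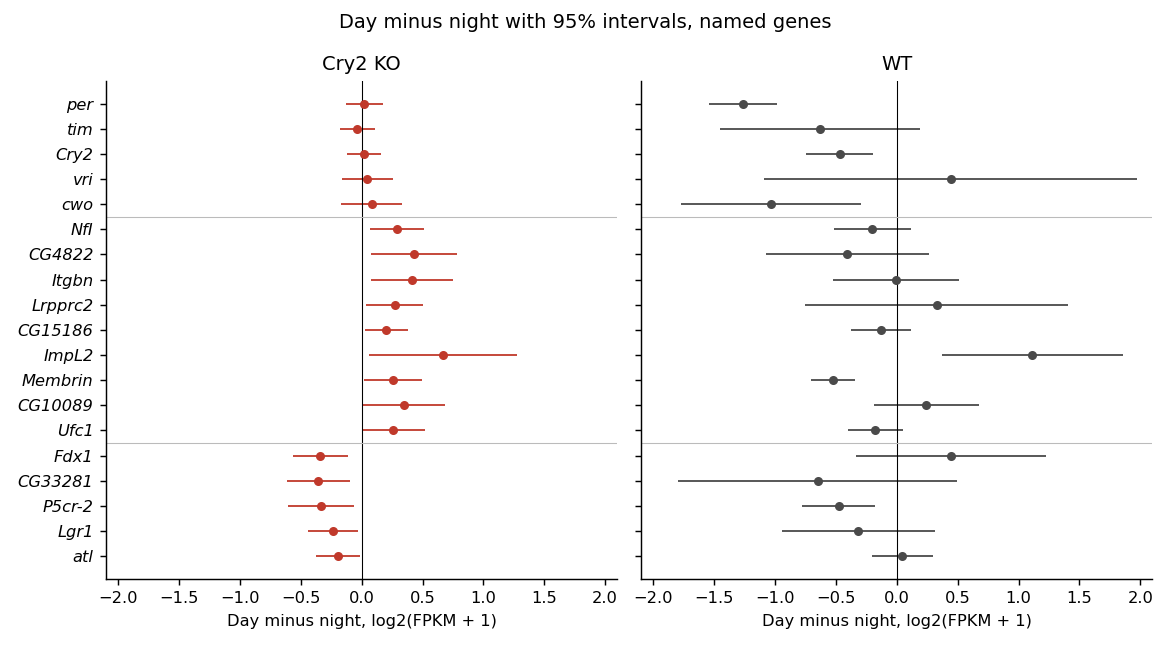
Day minus night in log2(FPKM + 1) (horizontal axis) with 95% intervals in *Cry2* KO (left) and WT (right), for the 5 core clock genes, 9 of the 10 named genes with the smallest p on the day side and the 5 on the night side in *Cry2* KO. The lower 14 genes were chosen by their *Cry2* KO p, so that their intervals there leave out 0 by choice, and *per* is at 0.02 in *Cry2* KO and -1.26 in WT.

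Over all genes, an unadjusted p under 0.05 in both genotypes was found for 24 genes, which are 5.61% of the 428 in *Cry2* KO and 6.32% of the 380 in WT. Of these, 12 had the same sign in both and 12 had opposite signs. Of the 380 WT genes, 211 (55.5%) had the same sign in *Cry2* KO.

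The smallest p of all genes in *Cry2* KO belonged to a gene with no name in the sources used here, DPOGS206496. It had 6.81, 9.20, 6.18 and 9.07 FPKM by day and 13.9, 18.98, 14.8 and 14.8 by night. Every night library lay above every day library, and the values rested on 2.2 to 10.1 reads per library. Its difference was -0.92 (95% interval -1.15 to -0.70, unadjusted p = 1.73e-05, limma adjusted p = 0.175), and every other gene had an adjusted p of 0.999 or more. In WT it had 10.3, 12.5, 8.45 and 5.27 FPKM by day and 27.6, 15.1, 10.6 and 11.7 by night, where the groups overlapped, with a difference of -0.73.

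The other genes without a name that the rule selects rested on still fewer reads. DPOGS208255 had a difference of -4.03, with 0, 1, 0 and 0 reads by day and 1, 3, 1 and 3 reads by night. DPOGS200274 had a difference of 2.28, with 2, 4, 1 and 2 reads by day and 0, 1, 0 and 0 by night. DPOGS207704 had a difference of 1.20, with 6, 9, 5 and 4 reads by day and 2, 1, 2 and 2 by night. Large differences were mostly of this kind: of 49 genes with an unadjusted p under 0.05 and a difference of at least 1 log2 unit in *Cry2* KO, 42 had a median of 5 reads or fewer. Such genes were 14.95% of the 428 and 5.90% of all genes tested.

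Heat shock and co-chaperone genes, which refold proteins or control those that do, had no call in either genotype. In *Cry2* KO, 0 of 10 members were called, none had an unadjusted p under 0.05, and their median difference was 0.04, next to 0.01 over all genes tested. In WT, 6 of the 10 had an unadjusted p under 0.05, all on the day side, and the median was 0.33. These members come from the list chosen on WT, of which 19.7% had an unadjusted p under 0.05 in WT and 3.52% in *Cry2* KO. *Hsp68* (DPOGS213901) had 23.8, 28.9, 29.2 and 28.4 FPKM by day and 27.6, 35.7, 26.4 and 28.1 by night in *Cry2* KO. In WT it had 17.7, 29.3, 12.0 and 13.8 by day and 5.51, 6.16, 8.64 and 13.1 by night. Its difference was -0.09 in *Cry2* KO (95% interval -0.31 to 0.14) and 1.02 in WT, with an interaction adjusted p of 0.916 (unadjusted 0.0067). The other *Hsp68* genes, DPOGS213900 and DPOGS213925, had differences of 0.04 and 0.04 in *Cry2* KO and 1.12 and 0.96 in WT. The 3 may share reads, since each read was kept at 1 location only. *Hsf*, the transcription factor that activates heat shock genes, had -0.09 in *Cry2* KO and -0.58 in WT. The largest value of the list in *Cry2* KO was that of *l(2)efl* (DPOGS216184), a small heat shock protein, at 0.23 (95% interval -0.02 to 0.48) against 0.20 in WT.

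Genes of trehalose, glycolysis and glycogen metabolism, the pathways that store and burn sugar, had estimated differences near 0 in *Cry2* KO, apart from *Pepck*. The estimate was loose for the trehalose transporter *Tret1-1*, at 0.11 (95% interval -0.96 to 1.17). Of 21 members, 0 were called, none had an unadjusted p under 0.05, 12 had values on the day side and 9 on the night side, and the median was 0.02. In WT, 5 of the 21 had an unadjusted p under 0.05, all on the day side, and the median was 0.22. The members again come from the list chosen on WT, of which 19.7% reached that p in WT and 3.52% in *Cry2* KO. *Pfk*, which commits sugar to glycolysis, had 73.1, 77.1, 75.2 and 75.7 FPKM by day and 72.5, 67.3, 70.8 and 75.1 by night in *Cry2* KO, with a difference of 0.08 (95% interval -0.07 to 0.22) against 0.31 in WT. *Tps1*, which makes trehalose, the blood sugar of insects, had 0.05 in *Cry2* KO (95% interval -0.08 to 0.19) and 0.25 in WT, and *GlyS*, glycogen synthase, 0.13 and 0.07. *Pepck*, which makes phosphoenolpyruvate from oxaloacetate, had 16.4, 19.8, 8.14 and 124 FPKM by day and 7.49, 9.14, 19.5 and 11.6 by night. ZT10 replicate 2 was the high library. With it the difference was 1.06 (95% interval -0.54 to 2.65), and without it 0.31 (95% interval -0.64 to 1.27). The 4 genes of the pentose phosphate pathway and citrate cycle had a median of -0.0034 in *Cry2* KO, with differences from -0.02 to 0.10, and 0.19 in WT.

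Signalling genes of the brain had no call either. Of 14 genes of neurotransmitter turnover and their receptors, 0 were called in *Cry2* KO and none had an unadjusted p under 0.05, with a median of 0.0021. *5-HT2B*, a serotonin receptor, was the 1 member whose day libraries, at 4.44, 3.50, 3.78 and 3.99 FPKM, all lay above its night libraries, at 3.41, 3.10, 3.35 and 2.82. Its difference was 0.24 (95% interval -0.04 to 0.52) against 0.05 in WT, in a comparison in which 2.24% of all genes had groups that did not overlap. *AdoR*, an adenosine receptor, had 0.14, *VGlut*, which loads glutamate into synaptic vesicles, 0.10, and *Got1*, an aspartate aminotransferase, 0.10 (0.28 in WT). Of 9 genes of neuropeptide, insulin and hormone signalling, *ImpL2* on the day side and *Lgr1* on the night side had an unadjusted p under 0.05, and the median was -0.01. *ftz-f1*, a nuclear receptor of the ecdysone response, had 0.10 and *ImpE1*, an ecdysone-induced gene, -0.11, with 95% intervals that held 0.

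Regulators grouped as responsive to light, feeding or stress were examined because the cycle of light and darkness was the same in *Cry2* KO and WT. Whether light drives them in monarch brains was not tested, so that they give no test of direct drive by light. Of 8 such regulators 0 were called and none had an unadjusted p under 0.05 in *Cry2* KO, with a median of 0.08 and values from -0.24 to 0.19. Over the 4 times 1 of them, *cbt*, a sugar-responsive transcription factor in *Drosophila*, had an unadjusted F test p under 0.05 (0.0221, limma adjusted 0.956), and it is named for that reason after its values were seen. It had 31.3, 30.5, 24.2 and 16.4 FPKM by day and 22.2, 19.7, 24.1 and 22.01 by night, highest in the 2 libraries at ZT4, with a day-night difference of 0.17 (95% interval -0.25 to 0.59). *E(spl)mbeta-HLH*, a Notch-responsive repressor, had 14.2, 17.4, 11.9 and 11.6 FPKM by day and 17.9, 14.8, 17.6 and 15.2 by night in *Cry2* KO. Its difference there was -0.24 (95% interval -0.56 to 0.07). In WT it stood at 53.3 and 48.5 FPKM at ZT10 and at 9.56 to 21.6 at the other 3 times. *h*, a related repressor, had a difference of 0.19 in *Cry2* KO (95% interval -0.23 to 0.62), *Sik3*, a salt-inducible kinase, 0.12 and *Sik2* 0.11. The 4 genes of carotenoid and visual pigment metabolism had a median of 0.04, with *santa-maria* (DPOGS203890), a carotenoid uptake receptor, at 0.15 and *ninaB*, the carotenoid-cleaving oxygenase, at -0.12, both with 95% intervals that held 0.

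The V-ATPase and translation lists completed the set. Their members, like those of every list here, come from the list chosen on WT, which favours differences in WT. The 4 V-ATPase genes, subunits or partners of the proton pump, had differences from -0.02 to 0.13 in *Cry2* KO with a median of 0.04, and a WT median of -0.23. *Vha100-2* (DPOGS208959) had 79.2, 89.4, 86.2 and 87.8 FPKM by day and 85.4, 89.3, 89.2 and 84.2 by night in *Cry2* KO. In WT its night values of 115.4 to 137 lay above its day values of 88.7 to 95.2. The difference was -0.02 in *Cry2* KO (95% interval -0.17 to 0.12) and -0.42 in WT, with an interaction adjusted p of 0.916 (unadjusted 0.00169). The 8 ribosomal protein and tRNA synthetase genes had a median of 0.01 in *Cry2* KO and values from -0.18 (*mRpL3*) to 0.14 (*mRpL45*), with 0 called.

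**Figure D5:**
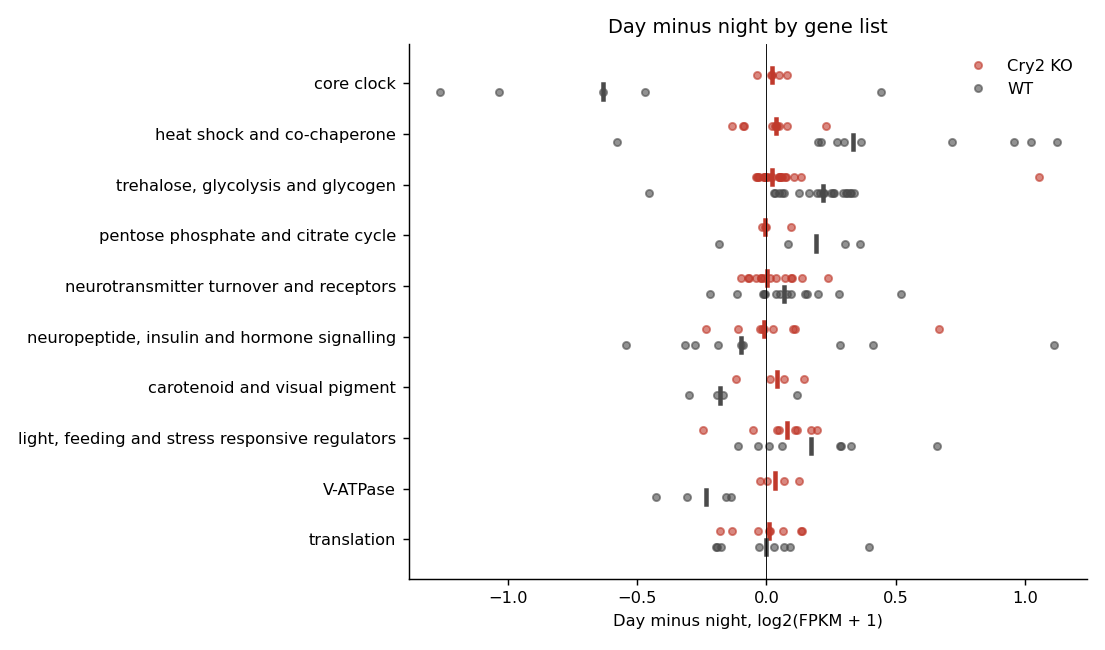
Day minus night in log2(FPKM + 1) (horizontal axis) for each tested member of 10 gene lists (vertical axis), in *Cry2* KO (red) and WT (grey), with a bar at the median of each list. The *Cry2* KO medians lie between -0.01 and 0.08, and the point at 1.06 is *Pepck*, which rests on a single library. All members come from the list chosen on WT, which favours differences in WT.

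Besides *per* and *Membrin*, the named genes whose day-night difference departed most from WT by interaction p were *Kdm2*, *Ctl2*, *Papss* and *CG7110*, none of which passed the test. *Kdm2*, a histone demethylase, had 11.8, 14.2, 14.9 and 13.9 FPKM by day and 12.5, 11.5, 16.2 and 12.9 by night in *Cry2* KO, with a difference of 0.05 (95% interval -0.22 to 0.32) against -0.65 in WT. *Ctl2*, a choline transporter-like protein, had 40.3, 40.9, 41.3 and 37.9 FPKM by day and 45.1, 35.7, 46.5 and 38.6 by night, with a difference of -0.04 (95% interval -0.21 to 0.13) against 0.52 in WT. Day and night values were interleaved in *Cry2* KO for both genes, while in WT they did not overlap. *Papss*, which makes the sulfate donor PAPS, had a difference of 0.01 in *Cry2* KO (95% interval -0.17 to 0.18) and 0.51 in WT, and *CG7110* had -0.13 (95% interval -0.34 to 0.09) and 0.31.

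In *Clk* KO the day-night contrast called 1 gene (0.00987%), DPOGS200288, with 1427 (14.1%) at an unadjusted p under 0.05, 1382 of them (13.6%) on the night side. DPOGS200288 stood at 7.35 to 14.6 FPKM by day and at 0 by night in *Clk* KO. At this locus, values of 17.1 to 22.6 FPKM in *Cry2* KO came from only 2 or 3 reads. The median of all genes in *Clk* KO was -0.16, and it became -0.0004 after median-of-ratios scaling, with 649 genes in place of 1427. With each library left out the count ranged from 642, without ZT22 replicate 1, to 2438, without ZT10 replicate 2. The *Clk* KO library ZT4 replicate 1 had the fewest genes at 3 FPKM of its genotype (9211), and no test between *Cry2* KO and *Clk* KO was made.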

How the data were processed

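RNA-seq libraries of polyA+ RNA were sequenced as single-end reads, and demultiplexed with CASAVA 1.8.2 per the labels. TopHat2 placed each read at no more than 1 position of monarch assembly v3. The authors deposited what Cufflinks then estimated, an FPKM with its 95% interval for each of 15130 genes. FPKM divides by all mapped reads and corrects for no other difference between libraries. Counts are not in the files, so that no count model was used. Reads behind a value were taken from its interval, which covers counting error only. Of such low values 87.4% lay within 0.05 of a whole number.

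Genes with at least 3 FPKM in any *Cry2* KO library were tested on log2(FPKM + 1), a pseudocount of 1, with limma 3.58.1 in R 4.3.3 (moderated test with an intensity trend, two-sided, Benjamini-Hochberg over 10127 genes), called at an adjusted p of 0.05 or less. Day-night fits had replicate as a factor, the genotype difference was the genotype-by-phase interaction over 16 libraries, and the F test had the 4 times and replicate. The fit was tested on simulated data with equal noise in all genes and no change within a phase. That test does not cover genes with few reads or the error that change within a phase adds. p-values of the F test measure the spread between pools of 3 brains. Those of the day-night and interaction fits measure that spread together with change between the times within a phase. Figures were drawn with Python 3.11.15 and matplotlib 3.10.9. Which libraries shared a sequencing pool is not given in the sources used here.

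The members and gene lists were chosen with earlier results of these data known. Named genes were the 5 core clock genes, the called genes of each direction filled with named genes of smallest unadjusted p under 0.05 up to 10, 2 genes without a name in each direction, the 3 named genes of smallest interaction p in each direction, and up to 4 members of each list. Coordinates are as the files give them. No sequences were used here, and 1 gene of the day side is not reported here.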

Additional observations from a re-analysis of the deposited data

Results flagged for a closer look

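The test of the genotype difference set *per* apart: its day minus night difference in *Cry2* KO minus that in WT was 1.284 on the log2 scale.

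Single libraries stood far from the other 3 of their phase in 9 of 140 groups of 4 *Cry2* KO libraries examined over 70 named genes, by the gap to the nearest library over the range of the 4. Chance alone gives about 1 group in 20, and no explanation was tested. *Pepck* had 124.3 FPKM at ZT10 replicate 2, against 8.14 to 19.8 in the other day libraries. By day, *CG10089* had 73.1 FPKM at ZT4 replicate 1 against 64.3 to 65.2, *Lgr1* had 96.97 at ZT4 replicate 2 against 82.5 to 84.5, *Hsp68* (DPOGS213901) had 23.84 at ZT4 replicate 1 against 28.4 to 29.2, and *Fdx1* had 18.09 at ZT10 replicate 1 against 14.49 to 14.94. By night, *VGlut* had 85.47 FPKM at ZT16 replicate 2 against 101 to 104, and *Sik2* had 11.79 at ZT16 replicate 1 against 8.33 to 8.90. The 2 loci with 0 in their other 3 libraries, DPOGS200274 at 2.794 FPKM (ZT16 replicate 2) and DPOGS208255 at 15.03 FPKM (ZT4 replicate 2), rested on 1 read each.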

How the results depend on the processing

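The count of 0 genes called in *Cry2* KO between day and night held with a pseudocount of 0.1, a mean of at least 3 FPKM, quantile normalization, median-of-ratios scaling, no replicate block, no intensity trend, robust empirical Bayes, and ZT10 against ZT22 only. It was 1 without a filter on low values and 4 for ZT4 against ZT16 only, and 0 to 2 with each library left out (1 without ZT4 replicate 2, DPOGS208255 with an adjusted p of 0.00851, and 2 without ZT16 replicate 2). These calls rested on a median of 1 read or fewer, apart from 1 gene of the 4, DPOGS211342, which has no name here. DPOGS211342 had a median of 9.5 reads and at most 94.6 in a *Cry2* KO library. For ZT4 against ZT16 only, its difference was 4.09, higher at ZT4, with a limma adjusted p of 0.027. The WT count of 0 became 2 with a pseudocount of 0.1, 1 without a filter, 2 with median-of-ratios scaling, 3 with no replicate block and 1 for ZT10 against ZT22 only, and was 0 to 2 with each library left out (2 without ZT16 replicate 1, 1 without ZT4 replicate 2 or ZT16 replicate 2). *per* in WT had an adjusted p of 0.0493 with median-of-ratios scaling and 0.0338 with no replicate block. The other WT calls of these fits and of the pseudocount of 0.1 were DPOGS203421 and DPOGS211457. These loci had at most 1.99 and 4 reads in any *Cry2* KO library, and their reads in WT are not given here. The *Clk* KO count of 1 became 4 with a pseudocount of 0.1, 3 without a filter and 0 for either pair of times, and was 0 to 3 with each library left out (0 without ZT4 replicate 1, ZT16 replicate 1 or ZT22 replicate 2, 2 without ZT16 replicate 2, 3 without ZT22 replicate 1).

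The genotype difference called 2 genes without a filter and 0 for ZT4 against ZT16 only, and 1, *per*, with each of 16 libraries left out. The F test over 4 times called 2 genes with a pseudocount of 0.1, 2 with no replicate block, 3 with no intensity trend and 2 with robust empirical Bayes, and 1 to 5 with each library left out (5 without ZT10 replicate 2, 3 without ZT16 replicate 1 or 2, 2 without ZT10 replicate 1 or ZT22 replicate 1). The cause of these moves was not tested. Replicate 2 minus replicate 1 differences correlated between -0.038 and 0.077 over 6 pairs of times. These differences hold replicate and sex together, and over all genes they shared little between times. What is shared through sex and what through replicate number cannot be told apart. With no replicate block the *Cry2* KO count stayed 0, with 405 genes at an unadjusted p under 0.05.

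Of 251 values of 28 named genes under other settings in *Cry2* KO, 245 kept their sign and none was called. The 6 others were *Papss* (-0.013 by quantile normalization, -0.0034 by median-of-ratios scaling, -0.043 for ZT4 against ZT16), *vri* (-0.14) and *Ctl2* (0.017) for ZT4 against ZT16, and *Kdm2* (-0.0018) for ZT10 against ZT22. With each library left out, values ranged from -0.013 to 0.057 for *per*, -0.0012 to 0.037 for *Cry2*, -0.0064 to 0.10 for *vri*, -0.0017 to 0.17 for *cwo*, -0.034 to 0.060 for *Papss* and -0.0056 to 0.15 for *Kdm2*.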
